A study of Mus musculus with 32 samples.

Results

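The genes described here encode subunits of the oxidative phosphorylation system, from both the mitochondrial and the nuclear genome. Members were selected by symbol, using the mouse naming of the subunits of complexes I to V, and by their measured level, a mean CPM (count scaled to a fixed library total) of at least 2 over all 32 libraries. Of 54429 gene symbols in the deposited table, 104 had such a symbol and 89 of these reached the level. The 89 members comprised 13 subunits encoded by mitochondrial DNA (mt-encoded) and 76 encoded in the nucleus. The libraries came from cultured mouse lung endothelial cells (ECs), and the mouse lung ECs named in the paper's reagent list are Veravec cells. The paper gives no strain for these cells. The si-control cells were given a control siRNA and the si-dnmt cells one that targets Dnmt1, the maintenance DNA methyltransferase, in a repeated transfection; the methods list a pair of Dnmt1 siRNA sequences without saying which library received which. Each siRNA was combined with 4 cytokine states, namely no cytokine, TNFα at 10 ng/mL (TNF), IFNγ at 1000 U/mL (IFN) or both (TNF + IFN), with 16 h of exposure. Each of the 8 groups held 4 libraries that the labels call biological replicates, with no culture, day or batch given, so p-values measure the spread between these libraries. The comparison asked how mt-encoded and nuclear-encoded subunit transcripts stood after Dnmt1 siRNA and after each cytokine.

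Oxidative phosphorylation takes place at the inner mitochondrial membrane. Complexes I and II pass electrons to ubiquinone, complex III passes them to cytochrome c and complex IV passes them to oxygen, while complexes I, III and IV pump protons that drive ATP synthesis by complex V. Mitochondrial DNA carries the core membrane subunits of complexes I, III, IV and V, transcribed as long polycistronic RNAs by a dedicated polymerase, whereas complex II and all remaining subunits are made in the cytosol and imported. Endothelial cells are known for a strong reliance on glycolysis, and their mitochondria are often described as signalling organelles as much as a source of ATP.

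By complex, the mt-encoded members were 7 subunits of complex I, 1 of complex III, 3 of complex IV and 2 of complex V. The nuclear-encoded members were 35 subunits of complex I, 4 of complex II, 8 of complex III, 12 of complex IV and 17 of complex V, with Ndufa4 placed in complex IV despite its complex I name. Near the level limit, the lowest member was Ndufb2 at a mean of 2.75 CPM, the next was Atp5s at 5.92 CPM, and the highest symbol left out was the pseudogene Atp5l2-ps at 0.956 CPM. Among the 15 symbols left out were the tissue-restricted complex IV isoforms Cox4i2 with 0 to 5 counts in a library, Cox6a2 with 0 to 6, Cox8b with 0 to 3 and Cox7a1, the heart and muscle form, with 0 to 14. The ubiquitous partners Cox4i1, Cox6a1, Cox7a2 and Cox8a were all members. All 89 members passed the low-count filter and were among the 15254 genes tested.

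Per kilobase of exon, mt-encoded and nuclear-encoded members differed widely in level in the si-control group without cytokine. Mt-encoded members ranged from 783 CPM per kb for mt-Nd6, the only subunit gene on the other strand of the mitochondrial genome, to 10242 CPM per kb for mt-Co1, the catalytic subunit of complex IV, with a median of 3181. Nuclear-encoded members ranged from 0.658 to 228 CPM per kb with a median of 31.3, and Atp5b, the catalytic beta subunit of ATP synthase, was the highest. Exon lengths were those of GENCODE M21, which may not be the annotation used for counting. No source used here states the strand setting of the counting, so mt-Nd6 and the opposite mt-Nd5 cannot be told apart where they abut, nor can the overlapping pairs mt-Atp8 with mt-Atp6 and mt-Nd4l with mt-Nd4. Nuclear copies of mitochondrial DNA and processed pseudogenes of small nuclear subunits make counts of such genes uncertain.

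Library totals ran from 17362546 to 33500030 counts. Dnmt1 was 5.11 to 17.3 CPM in si-dnmt libraries and 86.5 to 211 CPM in si-control libraries, and its log2 fold change ran from -3.76 to -4.08 over the cytokine states. Of 10 endothelial markers, 9 exceeded 1 CPM in every library and their sum ran from 2696 to 8443 CPM. That sum was lower with TNF + IFN than without cytokine, at group means of 3740 against 6884 CPM after si-control and 3195 against 6894 CPM after si-dnmt. The fibroblast list was higher with TNF, at 36.2 against 2.30 CPM after si-control and 20.8 against 5.51 CPM after si-dnmt. In that list Dcn alone reached 55.5 CPM in a library, and no other gene exceeded 3.42 CPM. Of 6 leukocyte markers, 4 never exceeded 3 counts, and the list summed to 1.45 to 132 CPM, with Lyz2 alone at up to 131 CPM. The pericyte or smooth muscle list summed to 95.5 to 166 CPM as group means after si-dnmt and to at most 41.4 CPM after si-control. Acta2 alone ran from 6.88 to 236 CPM over all libraries, and no other gene of that list exceeded 2.58 CPM. The part of these lists in the results was not tested. The epithelial list reached at most 23.3 CPM and the fibroblast list at most 57.7 CPM. In bulk RNA, fewer cells of a type and less RNA per cell cannot be told apart.

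Promoters of nuclear-encoded members were read from RefSeq (GRCm38.p6), where 62 of 76 members matched by symbol and gave 67 promoters of 250 bases before the start. These promoters held a median of 14 CpG dinucleotides, from 4 to 35, against a median of 6 over 32841 promoters of all genes. Their median GC content was 56.4% against 52.4%. A match to GCGCATGCG, the palindrome-like core recognised by nuclear respiratory factor 1, was present on either strand in 6 of 67 member promoters (8.96%) and in 1.45% of all promoters. The ETS-type element CCGGAAG, as bound by nuclear respiratory factor 2 (GABP), was present in 12 (17.9%) against 6.91%. CCAAT was present in 27 (40.3%) against 33.9%, and TTCNNNGAA, the form of an interferon-gamma-activated site, in 5 (7.46%) against 7.02%. These are matches of letters, each motif counted by itself, so that a base can belong to matches of more than 1 motif. GCGCATGCG and CCGGAAG contain CpG, and the part of base composition in these shares was not tested. The 32841 promoters were not limited to expressed genes, whereas the members were, and the part of expression level was not tested either. Promoters of 4 members are printed 5′ to 3′ on the gene's strand, with CpG dinucleotides in capitals, since CpG is the substrate of Dnmt1. Cox7a2l, Ndufc2 and Ndufs8 are shown because they were the nuclear-encoded members called lower after si-dnmt in every cytokine state in the fit without a replicate block, and Ndufa4 because its response to si-dnmt differed between cytokine states. The Cox7a2l promoter (chr17:83514334-83514583, minus strand) held 13 CpG dinucleotides, that of Ndufc2 (chr7:97399753-97400002, plus strand) 4, that of Ndufs8 (chr19:3912775-3913024, minus strand) 9 and that of Ndufa4 (chr6:11907451-11907700, minus strand) 10. Of the motifs searched, the Ndufc2 promoter held CCAAT at 1 place and the Ndufs8 promoter at 3, and the other two held none. DNA methylation was not measured in these libraries.
Cox7a2l promoter: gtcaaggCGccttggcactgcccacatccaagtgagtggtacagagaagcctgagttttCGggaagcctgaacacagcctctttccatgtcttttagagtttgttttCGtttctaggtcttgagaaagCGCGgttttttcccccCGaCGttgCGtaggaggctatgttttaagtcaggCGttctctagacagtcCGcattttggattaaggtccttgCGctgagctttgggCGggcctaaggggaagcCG
Ndufc2 promoter: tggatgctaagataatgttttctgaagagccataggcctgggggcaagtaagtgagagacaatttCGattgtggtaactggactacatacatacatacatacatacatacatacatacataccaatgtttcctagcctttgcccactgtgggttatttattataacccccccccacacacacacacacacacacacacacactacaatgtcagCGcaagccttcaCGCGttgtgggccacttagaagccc
Ndufs8 promoter: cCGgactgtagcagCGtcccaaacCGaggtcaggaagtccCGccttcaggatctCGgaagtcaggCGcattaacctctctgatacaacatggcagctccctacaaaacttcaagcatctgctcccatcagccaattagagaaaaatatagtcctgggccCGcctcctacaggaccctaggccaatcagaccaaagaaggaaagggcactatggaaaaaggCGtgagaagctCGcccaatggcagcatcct
Ndufa4 promoter: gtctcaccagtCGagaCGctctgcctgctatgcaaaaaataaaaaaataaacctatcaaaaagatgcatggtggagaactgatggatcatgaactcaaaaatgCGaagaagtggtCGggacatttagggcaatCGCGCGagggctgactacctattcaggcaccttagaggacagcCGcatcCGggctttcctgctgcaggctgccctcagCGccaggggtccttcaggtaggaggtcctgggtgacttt

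Transcripts from mitochondrial DNA took a smaller share of all counts after si-dnmt in every cytokine state. Without cytokine, mt-encoded members took 4.27%, 5.60%, 4.45% and 4.96% of counts in the si-control libraries (mean 4.82% ± 0.598, SD, n = 4). The si-dnmt libraries held 3.19%, 3.63%, 3.93% and 3.52% (mean 3.57% ± 0.307, SD, n = 4). All si-dnmt libraries lay below all si-control libraries, and the means differed by -26.0%. Under TNF the si-control libraries held 4.24%, 3.78%, 4.39% and 4.14%, and the si-dnmt libraries 2.88%, 2.62%, 3.30% and 2.99%. These groups did not overlap either, and the means differed by -28.8%. Under IFN the shares were 3.31%, 3.15%, 4.76% and 4.09% after si-control and 2.33%, 2.73%, 3.17% and 3.09% after si-dnmt. The difference was -26.1% and the groups overlapped, since the second si-control library lay below the third si-dnmt library. Under TNF + IFN, si-control libraries held 2.65%, 2.92%, 3.56% and 3.43% and si-dnmt libraries 2.07%, 2.08%, 2.57% and 2.57%, a difference of -26.1% without overlap. No p is given for these sums, because the members were chosen with results of these data known.

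The summed share of nuclear-encoded members was smaller than that of mt-encoded members in every library, and its siRNA groups overlapped in every state. It was 0.636% ± 0.0816 (SD, n = 4) after si-control and 0.557% ± 0.0320 (SD, n = 4) after si-dnmt without cytokine. The si-dnmt mean differed by -12.4% without cytokine, -1.29% under TNF, -13.1% under IFN and -4.89% under TNF + IFN, with overlapping groups in all 4 states. On the TMM scale the differences were -17.1%, -5.90%, -18.4% and -9.64%, and the groups under IFN did not overlap. Counts of mt-encoded over nuclear-encoded members gave a ratio of 7.77 ± 2.07 (SD, n = 4) after si-control and 6.42 ± 0.631 after si-dnmt, with overlapping libraries. Under TNF + IFN the ratio was 5.34, 5.78, 6.55 and 6.15 after si-control and 4.58, 4.56, 4.93 and 4.49 after si-dnmt, where the libraries did not overlap. Cytosolic ribosomal protein genes, likewise short and highly expressed, differed in share by -18.4%, -8.73%, -22.2% and -14.0% after si-dnmt in the same order of states, and their part in the nuclear-encoded result was not tested. The plot of summed shares shows these values by library.

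**Figure D1:**
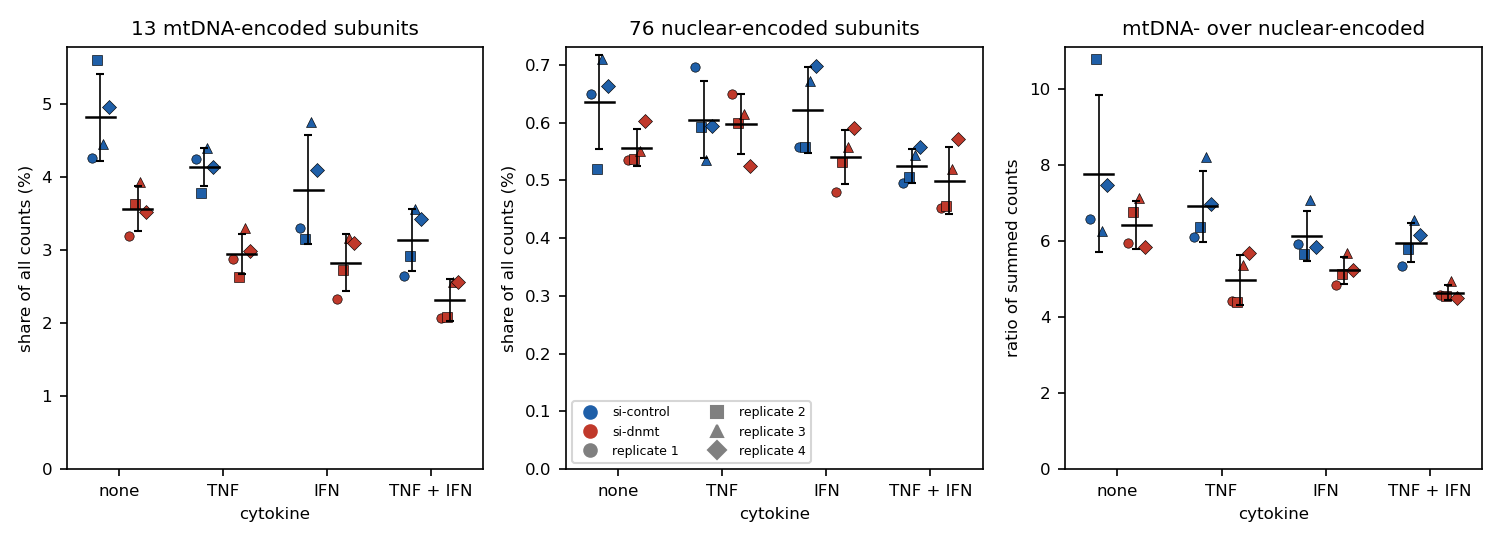
Summed share of counts of the 13 mt-encoded members, of the 76 nuclear-encoded members, and their ratio, by cytokine state (horizontal axis); each point is a library (marker shape gives the replicate number), bars are means and error bars SD over 4 libraries, blue for si-control and red for si-dnmt. The mt-encoded share was lower after si-dnmt in each state, from a mean of 4.82% to 3.57% without cytokine, while the nuclear-encoded shares overlapped.

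Single mt-encoded genes were tested with edgeR's quasi-likelihood method over all 15254 genes, and a gene was called at a Benjamini-Hochberg adjusted p under 0.05. Without cytokine, 9 of 13 mt-encoded members were called lower after si-dnmt and none higher, where 8.88% of all genes tested were called lower and 9.58% higher. Under TNF, 11 of 13 were called lower and none higher, with 9.59% of all genes lower and 10.4% higher. Under IFN it was 9 of 13 against 9.54% lower and 10.8% higher, and under TNF + IFN 7 of 13 against 8.72% lower and 8.97% higher. The median log2 fold change of the mt-encoded members was -0.56, -0.63, -0.54 and -0.54 in the 4 states, and all 13 had a negative value in each. With the replicate number as a block, 11, 12, 13 and 12 of 13 were called lower, which moved the count over 1.5 times under TNF + IFN. The shares of all genes above belong to the fit without a block. Leaving out replicate 2 of si-control took the 9 without cytokine to 5. Under TNF the 11 became 6 without replicate 1 of si-control + TNF or replicate 4 of si-dnmt + TNF, and 7 without replicate 3 of si-control + TNF or replicate 1 or 2 of si-dnmt + TNF. Under IFN the 9 became 5 without replicate 3 of si-control + IFN or replicate 1 of si-dnmt + IFN. All si-dnmt libraries lay below all si-control libraries for 9, 11, 8 and 7 of 13, against 10.1%, 11.2%, 10.1% and 10.9% of all genes.

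Of the 13 mt-encoded members, 5 were called lower in all 4 states, namely mt-Co1, mt-Co3, mt-Atp6, mt-Nd4 and mt-Nd4l. Of all genes tested, 547 of 15254 (3.59%) were called lower in all 4. With the replicate block 10 of the 13 members were called lower in all 4, and the 3.59% belongs to the fit without a block. Mt-Co3, a structural core subunit of complex IV, stood at 3925, 3977, 3667 and 3789 CPM, scaled by the trimmed mean of M-values (TMM), in si-control libraries without cytokine and at 2166, 2297, 2333 and 2278 CPM in si-dnmt libraries. The groups were far apart, and the log2 fold change was -0.76 (SE 0.134, adjusted p = 0.000179, edgeR). It was -0.69, -0.75 and -0.69 under TNF, IFN and TNF + IFN. Mt-Co1 was 13342, 19572, 14433 and 15946 CPM after si-control and 11265, 12408, 12661 and 11485 CPM after si-dnmt, with no overlap and the second si-control library far above the rest. Its log2 fold change was -0.40 (adjusted p = 0.0123, edgeR), and without that library the adjusted p was 0.0768. Under IFN the mt-Co1 call was likewise lost without replicate 3 of si-control + IFN (adjusted p = 0.0780) or replicate 1 of si-dnmt + IFN (0.0504). Mt-Atp6, the proton-channel subunit of complex V, had log2 fold changes of -0.60, -0.64, -0.64 and -0.70, all called.

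Complex I genes spanned the widest range among the mt-encoded members. Mt-Nd3 was 501, 322, 510 and 510 CPM after si-control and 175, 168, 253 and 265 CPM after si-dnmt without cytokine. Its groups did not overlap, and the log2 fold change of -1.10 (SE 0.271, adjusted p = 0.00458, edgeR) was the most negative of the 13. The mt-Nd3 difference was -0.82 under TNF, -1.10 under IFN and -0.66 under TNF + IFN, where it was not called (adjusted p = 0.0922) but was with the replicate block (0.00531). Mt-Nd4 was called in all 4 states, from -0.54 to -0.63. Mt-Nd1 and mt-Nd2 were called without cytokine and under TNF, with log2 fold changes of -0.48 to -0.57, and not under IFN or TNF + IFN. With the replicate block mt-Nd1 was called there too (adjusted p = 0.00336 and 0.008). Mt-Nd6 was called in none of the 4 states, at -0.28 to -0.40, and with the replicate block under IFN (adjusted p = 0.0347) and TNF + IFN (0.0304). Mt-Cytb, the complex III subunit, was -0.46 without cytokine (adjusted p = 0.066, or 0.00616 with the replicate block) and was called in the other states at -0.54 to -0.57. The 2 mitochondrial rRNA genes were called in no comparison by edgeR and had an unadjusted p under 0.05 in 0 comparisons, with mt-Rnr2 at 867, 718, 948 and 29.1 CPM in si-control + IFN, where replicate 4 was low. Their summed share of counts differed by -40.8% without cytokine, -36.9% under TNF and -23.7% under TNF + IFN with no overlap. Under IFN it differed by -18.8% with overlap, which came from replicate 4 of si-control + IFN at 0.00397%. The other si-control + IFN libraries held 0.0992% to 0.133%, above the si-dnmt + IFN libraries at 0.0670% to 0.0846%.

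**Figure D2:**
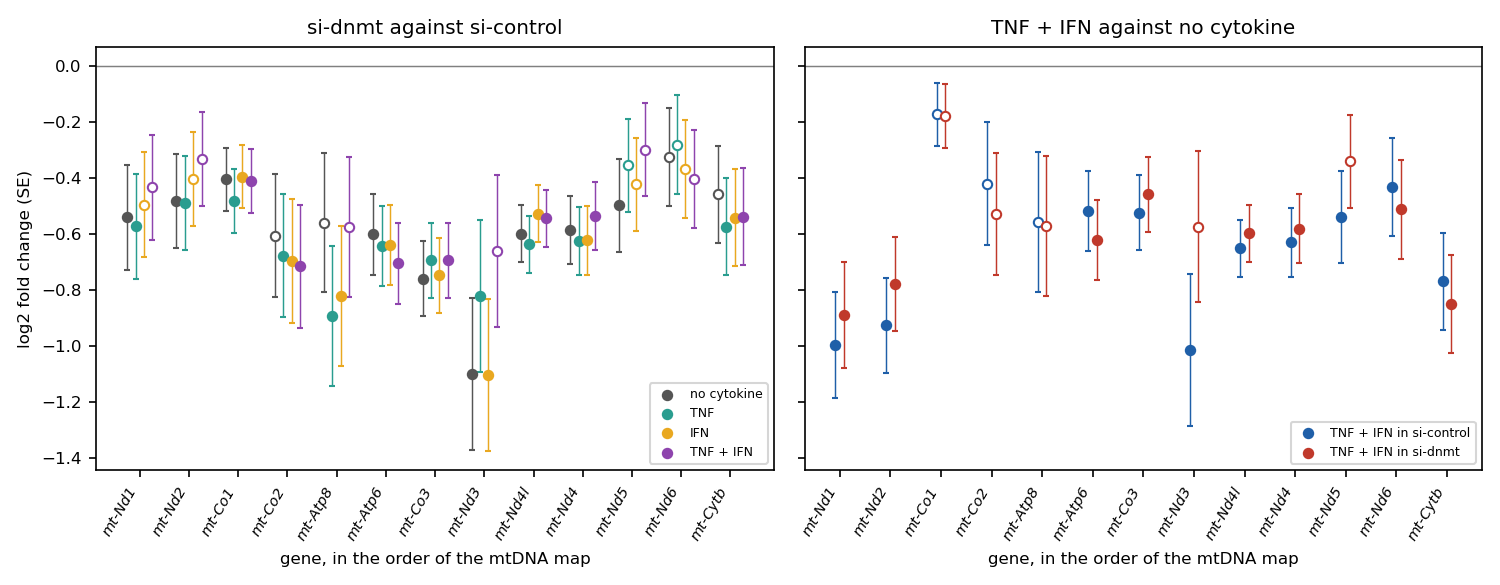
Log2 fold changes of the 13 mt-encoded genes in the order of the mitochondrial map (horizontal axis), for si-dnmt against si-control in 4 cytokine states and for TNF + IFN against no cytokine under each siRNA; error bars are SE of the fit and filled points have an adjusted p under 0.05. All values lay below 0, and mt-Nd3 was lowest after si-dnmt without cytokine at -1.10.

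Nuclear-encoded members were called chiefly as lower in the siRNA contrasts. Of 76, 14 were called lower without cytokine, 6 under TNF, 23 under IFN and 7 under TNF + IFN, and the member called higher was Ndufa4, under IFN and TNF + IFN. The calls as lower are 18.4%, 7.89%, 30.3% and 9.21% of the members, beside the backgrounds of 8.88%, 9.59%, 9.54% and 8.72% lower. The share under TNF lies under its background and the share under TNF + IFN near it. The median log2 fold change was -0.29, -0.03, -0.32 and -0.09. With the replicate block 29, 10, 39 and 12 were called lower and 0, 1, 1 and 1 higher, over 1.5 times the count in each state. The backgrounds above belong to the fit without a block, so the block counts have no share of all genes beside them. Single libraries moved the counts of the fit without a block. Without cytokine, 27 were called lower without replicate 2 of si-control, 8 without replicate 3 of si-control, 9 without replicate 2 of si-dnmt and 7 without replicate 3 of si-dnmt. Under IFN, 9 and 15 were called lower without replicates 1 and 3 of si-dnmt + IFN, and 12 and 11 without replicates 3 and 4 of si-control + IFN. Under TNF + IFN, 3 and 4 were called lower without replicates 1 and 2 of si-dnmt + TNF + IFN. Libraries of the siRNA groups did not overlap, with si-dnmt lower, for 14, 6, 32 and 9 of 76, where 10.1%, 11.2%, 10.1% and 10.9% of all genes were so placed. The count of 6 lies under that share and the count of 9 near it.

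Cox7a2l, Ndufc2 and Ndufs8 were the nuclear-encoded members called lower after si-dnmt in all 4 states, and 3 of 76 is near the 3.59% of all genes. In the fit with the replicate block 8 of 76 were, the others being Atp5b, Ndufa12, Ndufs1, Ndufv2 and Uqcrc2. The 3.59% belongs to the fit without a block, and no such share is given for the block. Cox7a2l (also SCAF1) is a factor that joins complexes III and IV in supercomplexes. It stood at 206, 210, 174 and 183 CPM after si-control and at 144, 135, 107 and 119 CPM after si-dnmt without cytokine. These libraries did not overlap, and the log2 fold change was -0.61 (SE 0.111, adjusted p = 0.00024, edgeR). Under TNF, IFN and TNF + IFN it was -0.54, -0.59 and -0.51, and no left-out library ended these calls. Cox7a2l was also called lower after TNF in si-control cells (-0.39) and in si-dnmt cells (-0.32, adjusted p = 0.0404, a call lost without any of 5 libraries), and after TNF + IFN in both (-0.51 and -0.40).

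Ndufc2, an accessory membrane-arm subunit of complex I, was 45.2, 31.0, 44.2 and 38.7 CPM after si-control and 20.7, 24.6, 20.7 and 24.8 CPM after si-dnmt. All si-dnmt libraries were lower, with a log2 fold change of -0.81 (adjusted p = 5.78e-05, edgeR). It was -0.51 under TNF, -0.98 under IFN (SE 0.131) and -0.67 under TNF + IFN. Ndufs8, which carries iron-sulfur clusters in the peripheral arm of complex I, was 36.0, 29.9, 46.4 and 40.5 CPM after si-control and 26.0, 25.8, 26.2 and 29.7 CPM after si-dnmt. The highest si-dnmt library lay just below the lowest si-control library, and the log2 fold change was -0.50 (SE 0.109, adjusted p = 0.00148, edgeR). Under the cytokines it was -0.57, -0.70 and -0.58.

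Other called nuclear-encoded members came from every complex, with the backgrounds of 8.88%, 9.59%, 9.54% and 8.72% lower in the order of states. Among complex I subunits, 5 of 35 were called lower without cytokine, 4 under TNF, 9 under IFN and 4 under TNF + IFN, Ndufa12 among them under IFN (-0.64) and TNF + IFN (-0.57). The 4 of 35 is 11.4%, near the background. Of the 4 complex II subunits, the flavoprotein gene Sdha was called lower without cytokine (-0.31) and under IFN (-0.35). Of 8 complex III subunits, 3, 1, 4 and 1 were called lower. Uqcrh, the hinge protein, fell by 0.67 on the log2 scale without cytokine, and Uqcrq by 0.51 under IFN and 0.50 under TNF + IFN. Leaving out 1 of 4 libraries ended the last of these calls. Of 12 complex IV subunits, 1, 1, 2 and 1 were called lower, and the isoforms Cox4i1, Cox6a1, Cox6b1, Cox7a2 and Cox8a were called in no comparison. Under the replicate block Cox8a was called with IFN (adjusted p = 0.0334), Cox4i1 after TNF in si-control cells (0.0327) and Cox7a2 after TNF (0.0423) and TNF + IFN (0.0265) in si-dnmt cells. Of 17 complex V subunits, 4, 0, 7 and 1 were called lower. Atp5j2, a small membrane subunit, was -0.64 without cytokine and -0.74 under IFN, and Atp5c1, the central-stalk gamma subunit, was -0.29 under IFN. The c-ring genes Atp5g1 and Atp5g2 were called in no comparison (Atp5g2 was with the replicate block under IFN, adjusted p = 0.005), and Atp5g3 was called lower only after TNF + IFN in si-control cells (-0.41).

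**Figure D3:**
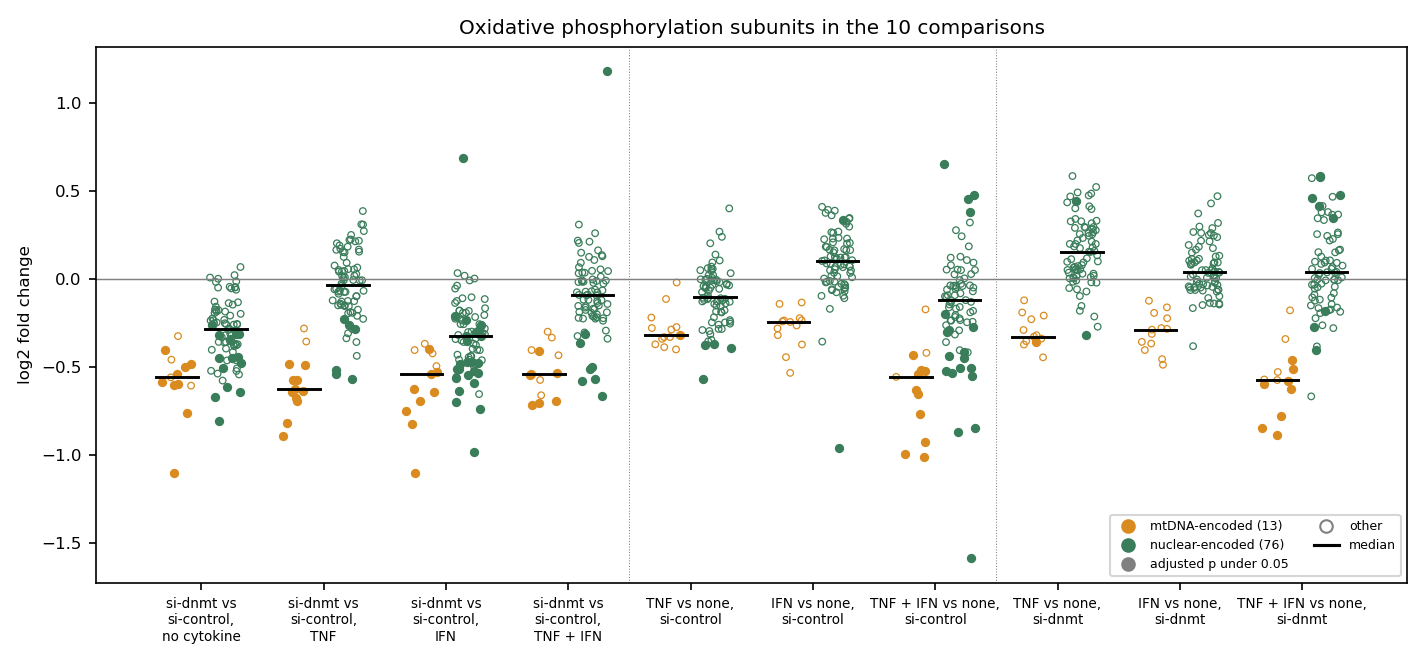
Log2 fold changes of the 89 members (points) in each of the 10 comparisons along the horizontal axis, orange for mt-encoded and green for nuclear-encoded, as 2 columns per comparison; filled points have an adjusted p under 0.05 and bars are medians. The mt-encoded values lay below 0 throughout, with medians of -0.24 to -0.63, while nuclear-encoded medians ran from -0.32 to 0.16.

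Most mt-encoded members were called lower after the combined cytokines. In si-control cells, TNF + IFN against no cytokine left 10 of 13 mt-encoded members called lower and none higher, with a median log2 fold change of -0.56, where 21.6% of all genes were called lower and 23.5% higher. In si-dnmt cells 8 of 13 were called lower (median -0.57), against 18.9% lower and 21.3% higher. The summed mt-encoded share differed by -34.8% and -34.9%, with no overlap between libraries in either siRNA group. The cytokine contrasts within an siRNA share the libraries without cytokine. In si-control cells mt-Nd1 was 2988, 4003, 3136 and 3565 CPM in the absence of cytokine and 1337, 1493, 2003 and 2031 CPM after both. These ranges were well apart, at a log2 fold change of -0.996 (SE 0.189, adjusted p = 8.53e-05, edgeR), and in si-dnmt cells the value was -0.89. Mt-Cytb fell by 0.77 and 0.85 on the log2 scale. Mt-Co1 was not called, at -0.17 and -0.18. Among the 13, mt-Co1 was closest to 0 after TNF + IFN in both siRNA groups.

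After single cytokines most mt-encoded members were not called. After TNF, 1 of 13 was called lower in each siRNA group, mt-Nd4l at -0.32 in si-control and -0.36 in si-dnmt cells, against 14.6% lower and 16.1% higher of all genes in si-control and 9.54% and 11.5% in si-dnmt cells. After IFN none of 13 was called in either group by edgeR, against 5.92% lower and 8.56% higher of all genes in si-control and 2.35% and 6.66% in si-dnmt cells. An unadjusted p under 0.05 was found for 5 of 13 in each. The median values were -0.32 and -0.24 after TNF and IFN in si-control and -0.33 and -0.29 in si-dnmt cells. With the replicate block the mt-encoded calls were 9 and 7 lower after TNF and 5 and 5 lower after IFN, so these counts rested on how the replicates were treated. The shares of all genes above are those of the fit without a block. No member of either kind was called after IFN in si-dnmt cells by edgeR or DESeq2, where 9 of 89 had an unadjusted p under 0.05.

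After TNF + IFN the share of nuclear-encoded members called higher lay below that of all genes. The share called lower was near that of all genes in si-control cells and below it in si-dnmt cells. In si-control cells 4 of 76 (5.26%) were called higher and 15 (19.7%) lower, where 23.5% and 21.6% of all genes were. The higher ones were Uqcrq (0.65), which helps bind ubiquinone in complex III, and the complex I subunits Ndufs4 (0.48), Ndufs3 (0.46) and Ndufa9 (0.38). The lowest values were those of Ndufa4 (-1.59), Uqcrh (-0.87), Ndufb2 (-0.85) and Ndufb10 (-0.55), and Ndufb11, another membrane-arm subunit of complex I, was called at -0.53. In si-dnmt cells, against 21.3% and 18.9% of all genes, 6 (7.89%) were called higher, led by Ndufs3 (0.59), Cox7b (0.58) and Uqcrq (0.48), and 3 (3.95%) lower, namely Cox7a2l (-0.40), Atp5c1 (-0.27) and Atp5a1 (-0.18). With the replicate block 7 were called higher and 7 lower there, and no share of all genes is given for that fit. The medians were -0.12 and 0.04. Scaling mattered for the nuclear-encoded sum after TNF + IFN, since its share of all counts differed by -17.3% in si-control and -10.2% in si-dnmt cells, whereas on the TMM scale the differences were -6.84% and 1.60%. The mt-encoded sum stayed lower on the TMM scale, by -26.9% and -26.4%.

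After TNF, 4 nuclear-encoded members were called lower in si-control cells, Uqcrh at -0.57 and Ndufb11 at -0.38 among them, and none higher, which is 5.26% of 76 beside 14.6% of all genes lower and 16.1% higher. In si-dnmt cells Uqcrq was called higher (0.45) and Cox7a2l lower. After IFN in si-control cells Ndufs4 was called higher (0.33) and Ndufa4 lower. With the replicate block, nuclear-encoded calls in si-control cells were 1 higher and 9 lower after TNF and 5 higher and 1 lower after IFN. In si-dnmt cells the block gave 7 higher and 1 lower after TNF and 4 higher after IFN. No share of all genes is given for the block.

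Ndufa4 was the member with a called siRNA by cytokine interaction. It encodes a peripheral subunit of complex IV that was first assigned to complex I. In si-control cells it was 77.9, 53.3, 70.1 and 59.7 CPM without cytokine, 30.3, 29.8, 39.4 and 34.8 CPM with IFN and 23.9, 23.9, 18.4 and 20.5 CPM with TNF + IFN. The 3 groups did not overlap, and Ndufa4 fell by 0.96 on the log2 scale with IFN (SE 0.178, adjusted p = 0.000244, edgeR) and fell by 1.59 with TNF + IFN (SE 0.181, adjusted p = 3.28e-08, edgeR). In si-dnmt cells it was 56.0, 60.5, 57.6 and 64.8 CPM without cytokine, 44.2, 51.0, 57.3 and 64.5 CPM with IFN and 41.5, 41.5, 49.7 and 64.2 CPM with TNF + IFN. These ranges overlapped, with log2 differences of -0.14 and -0.28 that were not called. After si-dnmt, Ndufa4 was therefore higher than after si-control with IFN alone (0.69, adjusted p = 0.00585) and with both cytokines (1.18, adjusted p = 2.85e-05), and differed by -0.13 without cytokine and 0.31 under TNF, neither called.

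The difference of differences was tested directly. For siRNA by TNF + IFN, Ndufa4 had an interaction of 1.31 on the log2 scale (SE 0.251, adjusted p = 0.0101, edgeR), and was the 1 member of 89 called, where 81 of 15254 genes (0.531%) were called. For siRNA by IFN it was 0.82 (adjusted p = 0.671) and for siRNA by TNF 0.44 (adjusted p = 0.839), and no member was called in either by edgeR or DESeq2, where 0.0459% and 0.0328% of genes were called. Unadjusted p was under 0.05 for 1 and 5 members. No left-out library ended the TNF + IFN interaction, and it was 0.96 in replicates 1 and 2 alone (adjusted p = 0.013) and 1.64 in replicates 3 and 4 alone (adjusted p = 6.86e-06). In replicates 3 and 4 alone the TNF and IFN interactions of Ndufa4 were called too (adjusted p = 0.0215 and 0.0369). In the single siRNA contrasts, leaving out replicate 1 of si-control + TNF brought Ndufa4 under the threshold for TNF as well (adjusted p = 0.0201).

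AA467197, the mouse counterpart of C15orf48 (NMES1), encodes a paralogue of Ndufa4 known to take its place in complex IV during inflammation. It is no member, and was chosen after its values were seen. It was 48.1, 42.7, 31.2 and 25.4 CPM without cytokine, 326, 307, 215 and 195 CPM with IFN and 514, 542, 307 and 311 CPM with TNF + IFN in si-control cells. The groups with cytokine lay far above the group without, at log2 fold changes of 2.82 (adjusted p = 5.38e-08, edgeR) and 3.505 (adjusted p = 4.2e-10), and of 1.04 with TNF. In si-dnmt cells it was 30.0, 35.9, 16.8 and 18.4 CPM without cytokine, 152, 183, 94.9 and 99.98 CPM with IFN and 280, 278, 154 and 171 CPM with TNF + IFN. All si-dnmt libraries under IFN and under TNF + IFN lay below all si-control libraries of the same state, with log2 fold changes of -0.98 (adjusted p = 0.0166) and -0.92 (adjusted p = 0.026, edgeR). Those calls were lost without any of 3 and of 4 libraries, and their adjusted p with the replicate block was 6.27e-10 and 2.6e-09. Without cytokine and under TNF the differences of -0.54 and -0.73 were called with the block (adjusted p = 8.74e-06 and 6.25e-08) and not without it (0.214 and 0.0765). The siRNA by TNF + IFN interaction of AA467197 was -0.38 and was not called (adjusted p = 0.892). In the si-control groups the means of the 2 genes lay in opposite order across the cytokine states, with the spread between replicates shown in the plot of both genes.

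**Figure D4:**
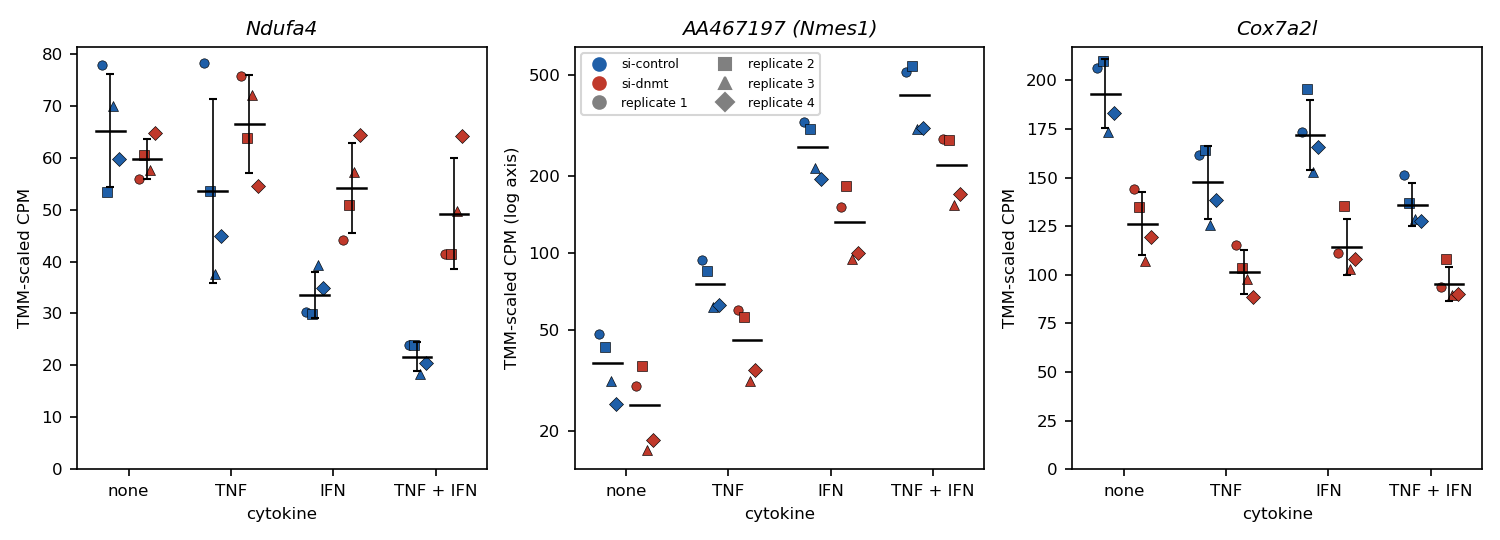
TMM-scaled CPM of Ndufa4, its paralogue AA467197 (log axis) and Cox7a2l by cytokine state; points are libraries, bars are means, error bars are SD over 4 libraries on the 2 linear panels, blue for si-control and red for si-dnmt. With TNF + IFN, Ndufa4 was 18.4 to 23.9 CPM after si-control and 41.5 to 64.2 CPM after si-dnmt, and Cox7a2l was lower after si-dnmt in all states.

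Fits to replicates 1 and 2 alone and to replicates 3 and 4 alone gave different calls for nuclear-encoded members after cytokine. How many of all genes were called in these fits is not given, so the counts below have no background beside them. In si-control cells, TNF against no cytokine had a nuclear-encoded median of 0.16 in replicates 1 and 2, with 9 called higher and 1 lower, and of -0.34 in replicates 3 and 4, with 41 called lower and none higher. Their summed share differed by 10.3% in the first pair and by -17.7% in the second. Cytosolic ribosomal protein genes differed in share by 5.36% and -20.4% in the same pairs. In si-dnmt cells TNF gave 27 nuclear-encoded members higher and 1 lower in replicates 1 and 2, and none higher and 2 lower in replicates 3 and 4. In the siRNA contrasts both pairs called most mt-encoded members lower, with 12, 12, 11 and 10 of 13 called lower in replicates 1 and 2 and 11 of 13 in each state in replicates 3 and 4. After IFN in si-control cells the pairs differed, with 9 of 13 called lower in the first pair and none in the second. Dnmt1 itself differed between the pairs, at 90.1 and 89.1 against 153 and 148 CPM in si-control libraries without cytokine. The labels name no batch, and the difference between the pairs was not itself tested.

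**Figure D5:**
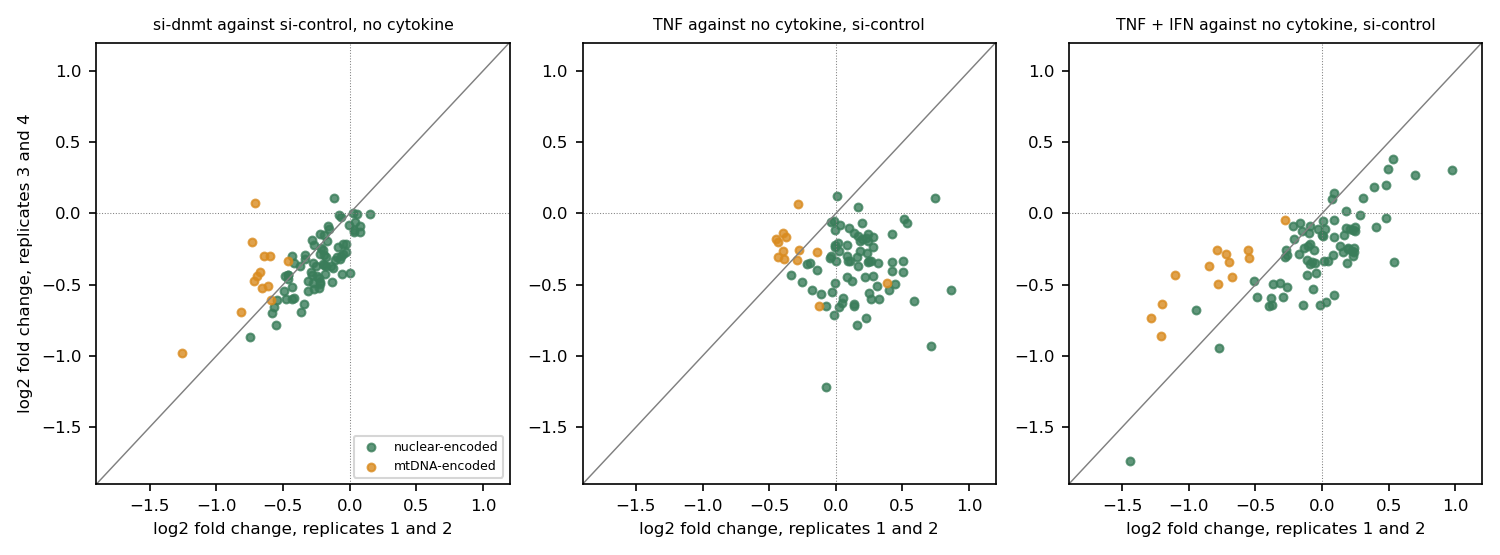
Log2 fold changes of the 89 members in replicates 1 and 2 alone (horizontal axis) and in replicates 3 and 4 alone (vertical axis), for si-dnmt against si-control without cytokine and for TNF and TNF + IFN in si-control cells, orange for mt-encoded and green for nuclear-encoded. Most mt-encoded members lay in the lower left, and under TNF in si-control cells nuclear-encoded members lay below 0 in replicates 3 and 4 (median -0.34) and mostly above 0 in replicates 1 and 2 (median 0.16).

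Genes that express, maintain or regulate mitochondrial DNA were called in both directions after si-dnmt. Of 35 genes for mitochondrial DNA expression and maintenance, 6, 1, 5 and 1 were called higher and 4, 4, 3 and 2 lower over the 4 states, where 8.97% to 10.8% of all genes were called higher and 8.72% to 9.59% lower, with medians of -0.09 to -0.14. Lrpprc, which stabilises mitochondrial mRNAs, was called lower in all 4 at -0.73, -0.76, -0.62 and -0.80. It was 103, 119, 105 and 111 CPM after si-control and 71.7, 71.4, 64.5 and 57.5 CPM after si-dnmt without cytokine, with no overlap. Polg, the mitochondrial DNA polymerase, was called higher in all 4, at 0.22 to 0.31, while the RNA polymerase gene Polrmt was called in none. Tfam, which packages mitochondrial DNA, was not called after si-dnmt, and was called higher after TNF (0.65) and TNF + IFN (0.60) in si-control cells. Pnpt1, a mitochondrial exoribonuclease component induced by interferons, was called higher after TNF + IFN (1.504) and Tfb2m, a transcription initiation factor, lower (-1.06). Of 8 transcriptional regulators of mitochondrial biogenesis, 0, 1, 0 and 0 were called higher and 1, 1, 1 and 3 lower after si-dnmt. Gabpb1, a subunit of GABP, was called lower in all 4 at -0.41 to -0.69. Ppargc1a (PGC-1α), a coactivator of mitochondrial genes, was called lower after TNF (-2.76) and TNF + IFN (-3.60) in si-control cells, from 9.71, 9.17, 3.25 and 5.29 CPM to 0.529, 0.937, 0.493 and 0.265 CPM with both.

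Assembly factors were called in both directions after si-dnmt. Of 48 assembly factors tested of 50 listed, 7, 7, 5 and 5 were called higher and 6, 2, 5 and 2 lower. The calls as higher are 14.6%, 14.6%, 10.4% and 10.4% of the list, beside 9.58%, 10.4%, 10.8% and 8.97% of all genes. The calls as lower are 4.17% to 12.5% of the list, near or under the 8.72% to 9.59% of all genes. Cox15, needed for the haem of complex IV, was called higher in all 4 states (0.55 to 0.67), and Sdhaf3, an assembly factor of complex II, lower in all 4 (-0.75 to -0.94). Sco1, a copper chaperone for complex IV, was called higher after TNF + IFN in si-control (1.93) and si-dnmt cells (2.51). Mitochondrial ribosomal proteins were called chiefly lower after si-dnmt without cytokine and under IFN. Of 77 tested, 0, 6, 1 and 4 were called higher and 13, 7, 12 and 8 lower, which is 16.9%, 9.09%, 15.6% and 10.4% lower beside 8.88%, 9.59%, 9.54% and 8.72% of all genes. After TNF + IFN in si-control cells 27 were called higher (35.1%, against 23.5% of all genes) and 7 lower. Mrpl19 was called lower in all 4 siRNA contrasts, at -0.70 to -0.85. Of 13 other subunits and electron carriers, at most 1 was called in either direction in any siRNA contrast, and cytochrome c (Cycs) was called higher after TNF + IFN (0.66 and 0.75).

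Glycolysis genes, the other main route to ATP in endothelial cells, were called lower after si-dnmt for 4, 9, 7 and 14 of 17, and none higher, with medians of -0.27, -0.43, -0.30 and -0.75, where 8.88%, 9.59%, 9.54% and 8.72% of all genes were called lower. After TNF + IFN in si-control cells 16 were called higher and 1 lower (median 0.86), against 23.5% and 21.6% of all genes, and in si-dnmt cells 9 and 2 (median 0.34), against 21.3% and 18.9%. Hk2, the first enzyme of the pathway, was called higher at 2.15 in si-control cells and 1.08 in si-dnmt cells, and its siRNA by TNF + IFN interaction of -1.07 was called (adjusted p = 0.0298, edgeR). Gpi1, the isomerase of the next step, chosen after its values were seen, had an interaction of -0.51 (adjusted p = 0.0195, edgeR). Pfkfb3, a regulator of glycolytic flux, was called higher at 4.07 with IFN and 4.24 with TNF + IFN in si-control cells.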

How the data were processed

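RNA was sequenced in bulk from 32 libraries. The authors deposited raw counts per gene for each library, and their processing notes name cutadapt 4.9, FastQC 0.12.1, MultiQC 1.27.1, featureCounts and DESeq2. No source used here gives the aligner, genome build, strand setting or library type. Members were chosen in the deposited table of all libraries, where counts of the 203 identifiers that shared a symbol were added, which gave 54429 symbols. Tests ran on the 54532 identifiers of the library tables, without adding by symbol. Those passing edgeR's expression filter (minimum count 10) were scaled by TMM. They were tested with edgeR 4.0.16 (quasi-likelihood, R 4.3.3) in 1 model of the 8 groups. Benjamini-Hochberg adjustment ran over 15254 genes with a threshold of 0.05. In these tests a symbol with more than 1 identifier was read from the identifier with the most counts. The tested genes held at least 99.9% of each library's counts. The script was tested on simulated data.

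The members and gene lists were chosen with earlier results of these data known. Named genes were all mt-encoded members, paired isoforms, the 3 highest and 3 lowest called nuclear-encoded members of each comparison, called members of each interaction, and leading called genes of each pathway list. Other members given by name illustrate a complex, and AA467197 and Gpi1 were chosen after their values were seen.

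Replicate numbers came from the labels. Same-numbered libraries deviated together in all 40 comparisons of a library with those of another group (correlations of 0.299 to 0.617). In 16 of 40 a library was closest to its own number. In every comparison the closest library came from the same pair of numbers, 1 and 2 or 3 and 4. A fit with the replicate number as a block was therefore run too. Alternatives were other scalings, no low-count filter, DESeq2 1.42.0, only the groups compared, replicates 1 and 2 or 3 and 4 alone, and leaving out each library.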

Additional observations from a re-analysis of the deposited data

Results flagged for a closer look

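In 256 sets of 4 libraries, 9 held a library far from the other libraries of its group, and chance gives about 1 in 20. Mt-Atp8 was highest in replicate 1 of si-control + TNF at 646 CPM, mt-Nd3 lowest in replicate 2 of si-control at 322 CPM and mt-Nd4l lowest in replicate 1 of si-dnmt + IFN at 457 CPM. Ndufs8 was lowest in replicate 1 of si-control + IFN at 38.3 CPM and highest in replicate 4 of si-dnmt at 29.7 CPM. In replicate 4 of si-control + IFN, mt-Rnr1 was 11.1 CPM, mt-Rnr2 was 29.1 CPM and both mitochondrial rRNA genes took 0.00397% of counts, the lowest of that group. The same share was highest in replicate 3 of si-dnmt at 0.0955%.

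The response to TNF + IFN differed between the siRNA groups by edgeR's interaction test for Ndufa4 (1.31 on the log2 scale), and for the glycolysis genes Hk2 (-1.07) and Gpi1 (-0.51).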

How the results depend on the processing

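Counts of called members moved over 1.5 times as follows, with no share of all genes given for these alternative fits. After si-dnmt without cytokine, 23 became 12 with no low-count filter, 40 with the replicate block and 53 in replicates 3 and 4 alone. Under TNF, 17 became 30 in replicates 3 and 4 alone and 11 to 16 on leaving out a library (11 without replicate 1, 2 or 4 of si-dnmt + TNF). Under IFN, 33 became 21 with no filter, 53 with the replicate block and 61 in replicates 3 and 4, and 15 to 36 on leaving out a library (18 and 19 without replicates 3 and 4 of si-control + IFN, 15 without replicate 1 of si-dnmt + IFN). Under TNF + IFN, 15 became 25 with the replicate block, 26 in replicates 1 and 2, 28 in replicates 3 and 4, and 9 to 16 on leaving out a library (9 without replicate 1 of si-dnmt + TNF + IFN).

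In si-control cells, TNF gave 5 calls, which became 1 with no filter or only the groups compared, 19 with the replicate block, 15 in replicates 1 and 2, 49 in replicates 3 and 4, and 1 to 13 on leaving out a library (3 without replicate 1 or 4 of si-control, 13, 1 and 2 without replicates 1, 3 and 4 of si-control + TNF). IFN gave 2, which became 1 with no filter or only the groups compared, 5 with DESeq2, 11 with the replicate block, 17 in replicates 1 and 2, 5 in replicates 3 and 4, and 1 to 5 on leaving out a library (replicates 2, 3 or 4 of si-control, or 1, 3 or 4 of si-control + IFN). In si-dnmt cells, TNF gave 3, which became 1 with no filter, 6 with DESeq2, 5 with only the groups compared, 15 with the replicate block, 33 in replicates 1 and 2, 10 in replicates 3 and 4, and 0 to 12 on leaving out a library (replicates 1, 2 or 4 of si-dnmt, or 2, 3 or 4 of si-dnmt + TNF). IFN gave 0, which became 3 with only the groups compared, 9 with the replicate block, 6 in replicates 1 and 2 and 7 in replicates 3 and 4. TNF + IFN gave 17, which became 26 with the replicate block and 30 in replicates 3 and 4. In replicates 3 and 4 the TNF, IFN and TNF + IFN interactions had 11, 1 and 18 calls. The replicate block moved no other count over 1.5 times, and the cause of these moves was not tested.

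Cox7a2 and Cox7b after TNF in si-control cells turned from 0.07 and 0.01 over all libraries to -0.62 and -0.35 in replicates 3 and 4 alone. The nuclear-encoded summed share after TNF + IFN in si-dnmt cells, a log2 ratio of -0.16, was 0.0567 as a mean of log2 CPM.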
